A study of Rattus norvegicus with 12 samples.

Results

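Gene expression in 4 rat hearts under phasic diastolic overload was compared, gene by gene, with that in 4 control hearts, which is 8 of the 12 hearts of the series. The hearts were taken by the titles of their arrays. Both groups came from Sprague-Dawley rats, an outbred stock: the overloaded hearts carried extra load in diastole alone, and the control hearts carried no load in any phase. The other 4 hearts, of the same stock, were under phasic systolic overload and serve here only as a second group to set the diastolic hearts against. The title places the load on the left ventricle, while the labels name heart as the tissue. How long the load lasted, the age and sex of the rats, the slide of each array, and whether every heart came from its own animal are not given in the sources used here. P-values therefore reflect how much these samples varied, and part of that variation may be technical.

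Diastole is the phase in which the ventricle relaxes and fills, and extra load at that time stretches the relaxed muscle. Stretch of cardiac muscle is known to raise transcripts of natriuretic peptides, of skeletal alpha-actin and of mechanosensing proteins of the Z-disc such as the ankyrin repeat protein Ankrd1. The heart also holds resident macrophages, lymphocytes, endothelial cells and fibroblasts, whose transcripts are measured together with those of the muscle.

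Values are normalized log2 intensities of bead arrays with 22523 probes, of which 10234 passed the detection filter. The tested probes stand for 7348 named genes, each represented by its brightest probe. Between 9249 and 9931 probes were detected per array. Arrays correlated with each other at 0.984 to 0.992. Along the leading principal component, with 23.1% of the variance, diastolic overload 1 (−19.32), control 1 (−16.94) and control 2 (−13.80) lay at one end, and diastolic overload 3 (13.43) and control 3 (12.15) at the other. Cardiomyocyte markers were bright, with a mean over 11 genes of 12.54 to 12.67 in diastolic hearts and 12.47 to 12.62 in control hearts. Of the epicardial and mesothelial markers 0 passed the filter, and of 10 neutrophil markers 2 did.

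No gene passed the test for a difference between diastolic overload and control. The genes that stood furthest apart included the matrix protein gene Smoc2 and the growth factor gene Vegfa, both lower under diastolic overload, and the T-cell gene Cd3d and the 14-3-3 gene Ywhag, both higher. Most genes lay close to their control level, since the 95% interval of the difference was within 2-fold in either direction for 97.3% of the tested probes. With limma and Benjamini-Hochberg adjustment, 0 of 10234 probes (0%) passed, and the smallest adjusted p was 0.34. An unadjusted p under 0.05 was found for 562 probes (5.49%), 248 of them higher and 314 lower in diastolic hearts, where 511.7 would be expected by chance.

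All 4 diastolic hearts lay above all 4 control hearts for 113 probes (1.1%), and all 4 lay below for 171 probes (1.67%), so the groups did not overlap for 284 probes (2.78%). With 4 hearts against 4, chance alone separates the groups in either direction with a probability of 0.0286. The share of separated probes was thus near that of chance. Counted by gene, 64 genes of 7348 (0.871%) were separated upward and 118 (1.61%) downward, while 47.9% of all genes had a higher mean under diastolic overload. The separated genes differed little in level, with a median absolute log2 difference of 0.28 among those above and 0.29 among those below. The widest gaps were 0.87 and 0.97. Among the 12 probes whose means differed by more than 1 log2 unit, 5 higher and 7 lower, 0 were free of overlap, and hearts of 1 group differed widely from each other for these probes.

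**Figure D1:**
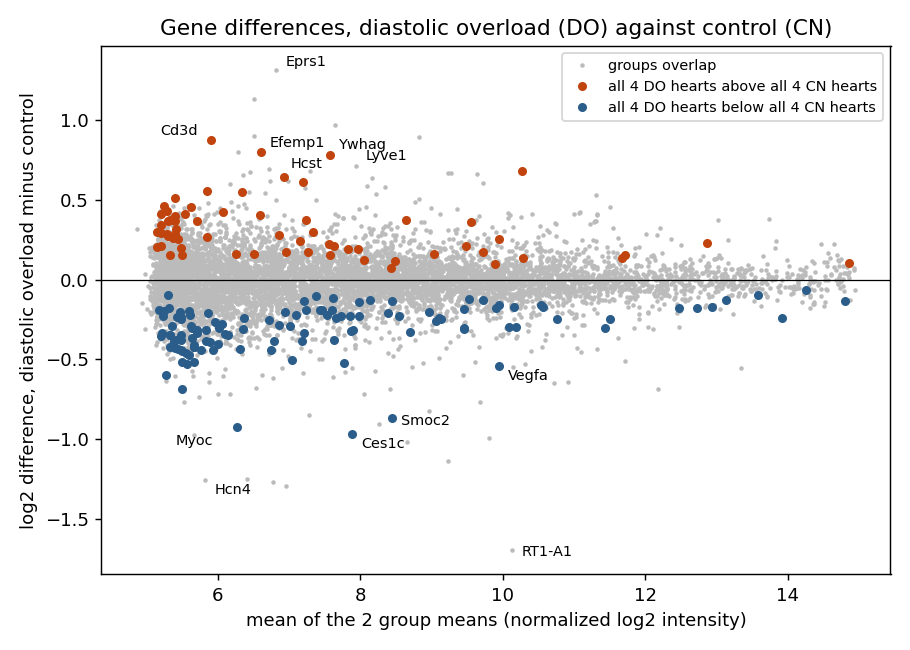
Each point is 1 of 7348 genes, with the mean of its 2 group means on the horizontal axis (normalized log2 intensity) and the log2 difference, diastolic overload minus control, on the vertical axis. Filled points mark the 64 genes with all 4 diastolic hearts above all 4 control hearts and the 118 genes with all 4 below; the widest differences, such as that of RT1-A1, belong to genes whose groups overlap.

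Smoc2 encodes a secreted calcium-binding protein of the extracellular matrix and had the smallest p of all probes. Its level was 8.13, 7.90, 7.74 and 8.30 in diastolic overload hearts 1 to 4, and 9.07, 8.75, 8.76 and 8.97 in control hearts 1 to 4. The highest diastolic heart thus lay below the lowest control heart, with a difference of −0.87 ± 0.14 (SE) and a 95% interval of −1.17 to −0.57 (limma adjusted p = 0.34). Systolic overload hearts, at 7.94 to 8.42, covered nearly the same range as the diastolic hearts, and the difference between the overloads was −0.10 (limma adjusted p = 0.99). With 1 array left out the difference stayed between −0.96 and −0.78.

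Mpzl1, a cell surface glycoprotein, was even tighter within the diastolic group, at 6.77, 6.75, 6.75 and 6.93 in diastolic hearts, against 7.49, 7.22, 7.32 and 7.17 in control hearts. The groups did not overlap and differed by −0.50 (limma adjusted p = 0.73). Ces1c, a carboxylesterase that cleaves esters and lipids, stood at 7.17, 7.83, 7.78 and 6.82 in diastolic hearts, against 7.98, 8.33, 8.50 and 8.67 in control hearts. Its difference of −0.97 was the widest downward gap among genes without overlap, and its diastolic hearts fell into a higher and a lower pair. Myoc, which encodes the secreted glycoprotein myocilin, stood at 6.03, 6.20, 5.28 and 5.70 in diastolic hearts, against 6.88, 6.56, 6.22 and 7.25 in control hearts. Here diastolic overload 2 came close to control 3, while the means differed by −0.93 (limma adjusted p = 0.75).

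Further genes lay lower in all 4 diastolic hearts but near the detection limit. Bard1, the partner of the repair protein Brca1, averaged 5.15 ± 0.34 in diastolic hearts and 5.84 ± 0.11 in control hearts (SD, n = 4 each), and was detected in 1 of 4 diastolic hearts. Pappa, a protease that cleaves binding proteins of insulin-like growth factors, had a difference of −0.43 and was detected in 1 of 4 diastolic hearts. Mtf1, a metal-responsive transcription factor, had a difference of −0.45 and was detected in 2 of 4. Zcchc17 (−0.41), Map3k7cl (−0.46) and Or10ag54b, annotated as an olfactory receptor (−0.53), were detected in 4, 2 and 3 of 4 diastolic hearts. Lhfpl2 was detected in 0 of 4 diastolic hearts and in all 4 control hearts, so its measured means differed by at least 1.17-fold, a bound set by the lowest detected signal of each diastolic array. Tmtc4, an enzyme that attaches mannose to proteins in the endoplasmic reticulum, was above background throughout and averaged 6.10 ± 0.08 in diastolic hearts and 6.53 ± 0.24 in control hearts (SD, n = 4 each).

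Ywhag encodes the gamma form of the 14-3-3 proteins, adaptors that bind phosphorylated partners. Its level was 8.52, 7.87, 7.65 and 7.82 in diastolic hearts, against 7.10, 7.44, 7.06 and 7.13 in control hearts. All diastolic hearts lay above all controls, with diastolic overload 1 furthest out, and the difference was 0.78 with a 95% interval of 0.42 to 1.15 (limma adjusted p = 0.73). Without diastolic overload 1 it was 0.60. The systolic hearts, at 7.39 to 7.83, overlapped both groups, and their mean of 7.58 lay between the others. The other 5 tested 14-3-3 genes differed by −0.02 to 0.10, and all of them overlapped between the groups.

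Efemp1 encodes fibulin-3, an extracellular matrix glycoprotein, and stood at 7.06, 7.21, 6.83 and 6.93 in diastolic hearts, against 6.35, 5.74, 6.01 and 6.74 in control hearts. Its difference was 0.80, but control 4 came close to the lowest diastolic heart, and systolic overload hearts spanned 5.76 to 7.41. Higd2a, a mitochondrial protein that helps to assemble respiratory supercomplexes, stood at 7.38, 7.52, 7.75 and 7.38 in diastolic hearts, against 7.34, 6.92, 6.90 and 6.43 in control hearts. The gap between the lowest diastolic heart and control 1 was small, and the difference of the means was 0.61 (limma adjusted p = 0.75).

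Eprs1, the synthetase that loads glutamate and proline onto tRNA, had the widest higher difference of all genes, at 1.32, with 7.15, 7.94, 7.14 and 7.69 in diastolic hearts and 5.55, 7.15, 6.19 and 5.78 in control hearts. Control 2 lay among the diastolic hearts, so the groups overlapped, and the adjusted p was 0.75 (limma). Systolic overload hearts had nearly the same mean, 7.51. Slc66a1, an exporter of cationic amino acids from lysosomes, lay higher in all 4 diastolic hearts (difference 0.37) and was detected in 2 of 4 control hearts. The amino acid transporters Slc43a2 and Slc7a1 were detected in 0 of 4 control hearts, which puts their diastolic means at least 1.20-fold and 1.18-fold higher.

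Frs2, an adaptor of fibroblast growth factor receptors, was likewise detected in all 4 diastolic hearts and in 0 of 4 control hearts (at least 1.33-fold). The lipid hydrolase Abhd2 had the same pattern (at least 1.12-fold) and was detected in 0 systolic hearts. It passed the detection filter through the diastolic hearts alone, so its pattern of detection adds no support for a difference. Orc6, a subunit of the origin recognition complex that starts DNA replication, averaged 6.29 ± 0.09 in diastolic hearts and 5.86 ± 0.13 in control hearts (SD, n = 4 each). Rpusd1, annotated as a pseudouridine synthase, differed by 0.55, of which control 1 held a large share, since the difference was 0.31 without that heart. Ap3m1, a subunit of a vesicle adaptor complex, and Adgrg7, an adhesion receptor, differed by 0.46 and 0.41 and were detected in 3 of 4 control hearts.

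**Figure D2:**
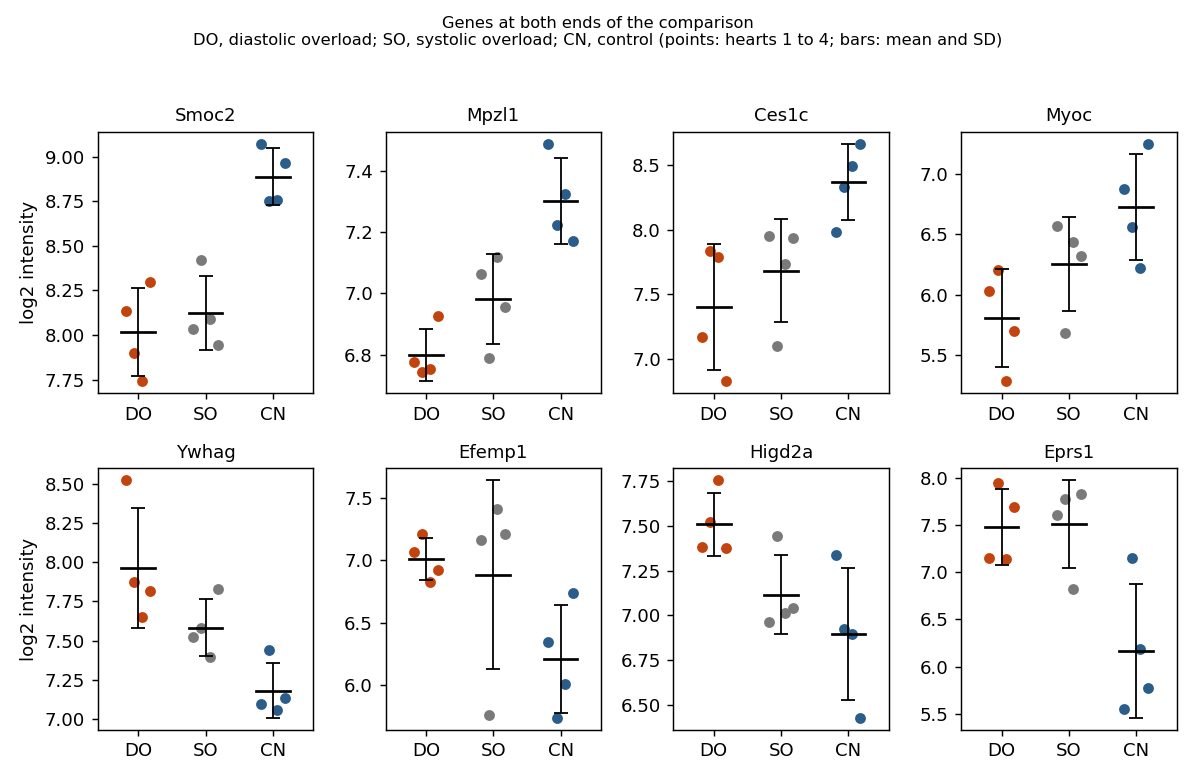
Normalized log2 intensity (vertical axes) of 8 genes in diastolic overload (DO), systolic overload (SO) and control (CN) hearts, with 1 point per heart and bars for the mean and SD. The 4 genes of the upper row lie lower and the first 3 of the lower row higher in all 4 diastolic hearts than in any control heart, while for Eprs1 control 2 lies among the diastolic hearts.

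Markers of immune cells had mostly higher means in diastolic hearts. A higher mean was found for 15 of 16 tested markers of macrophages and monocytes (median log2 difference 0.31), 11 of 14 markers of T and NK lymphocytes (median 0.20), 5 of 6 class II histocompatibility genes (median 0.28) and 9 of 11 complement genes (median 0.11), against 47.9% of all genes. Of these lists 0 members passed the test with limma. In such bulk samples a difference in the number of cells of a type and one in RNA per cell cannot be told apart.

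Cd3d, which encodes the delta chain of the CD3 complex on T cells, stood at 6.55, 6.10, 6.19 and 6.55 in diastolic hearts, against 5.54, 5.50, 5.80 and 5.06 in control hearts. All diastolic hearts lay above all controls (difference 0.87, 95% interval 0.46 to 1.29, limma adjusted p = 0.73), and control 4 was the lowest. The gene was detected in 3 of 4 control hearts. Systolic hearts stood at 5.24 to 6.10, and the difference between the overloads was 0.71 (limma adjusted p = 0.64).

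Hcst, a signalling adaptor of NK and T-cell receptors, stood at 7.29, 7.03, 7.32 and 7.36 in diastolic hearts, against 6.77, 6.27, 6.68 and 6.72 in control hearts. These groups did not overlap either, and their difference was 0.64 (limma adjusted p = 0.73). Cd3g, another chain of the receptor complex, named after its values were seen, differed by 0.62, but diastolic overload 2 (6.71) lay below control 1 (6.73). The further chains Cd3e and Cd247, also named after their values were seen, differed by only 0.04 and 0.20, so the chains did not differ alike. At the other end of the lymphocyte list was the protease gene Gzma (−0.23), for which control 1 alone reached 7.83 and the difference was 0.24 without it. The list's mean level ran from 6.46 to 7.25 in diastolic hearts and from 6.19 to 7.19 in control hearts, so the list as a whole overlapped.

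Adgre1, a surface receptor that defines macrophages in rodents, stood at 6.27, 6.01, 6.37 and 5.84 in diastolic hearts, against 5.52, 5.55, 5.74 and 5.46 in control hearts. It was the only tested macrophage marker without overlap between the groups (difference 0.55, limma adjusted p = 0.75). Among all genes 0.871% were higher without overlap. Lyve1, which binds hyaluronan on lymphatic vessels and on part of the resident macrophages, stood at 8.57, 8.24, 8.42 and 7.98 in diastolic hearts, against 7.99, 7.19, 7.82 and 7.33 in control hearts. Diastolic overload 4 and control 1 all but coincided, and the difference was 0.72 (limma adjusted p = 0.74). Systolic hearts were close together for Lyve1, at 8.06 to 8.17, and lay above every control.

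Mrc1, the mannose receptor of resident macrophages, named after its values were seen, differed by 0.46, with 3 of 4 diastolic hearts above all controls. Cd163 (0.03), Ms4a7 (0.02) and Fcgr3a (0.01) of the same list, also named after their values were seen, barely differed. C1qa, a chain of the first complement component made by macrophages, stood at 9.64, 8.83, 9.30 and 8.57 in diastolic hearts, against 8.69, 8.33, 8.50 and 8.79 in control hearts. Its difference of 0.51 shrank to 0.32 without diastolic overload 1. Ccr2, the chemokine receptor of recruited monocytes, was the single macrophage marker with a lower mean (−0.16) and was near the detection limit.

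RT1-DMa, which loads peptides onto class II molecules, stood at 7.24, 6.52, 7.26 and 6.73 in diastolic hearts, against 6.54, 6.36, 6.27 and 6.39 in control hearts. Diastolic hearts 1 and 3 were high and heart 2 lay among the controls (difference 0.55). Its partner chain RT1-DMb had a lower mean instead (−0.35), with 9.68 in diastolic hearts 2 and 4.

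Diastolic overload 1 carried much of the macrophage and complement values. The mean level of the macrophage list was 8.73 in that heart, 7.99 to 8.29 in the other diastolic hearts and 7.82 to 8.10 in control hearts. Without diastolic overload 1 the list's median difference was 0.08, with 11 of 16 members higher, and the complement median was −0.01, with 5 of 11 higher. The lymphocyte median was 0.23 and the class II median 0.21 without that heart. Other hearts moved the lymphocyte median more, to 0.07 without control 2, 0.08 without diastolic overload 3 and 0.37 without diastolic overload 2. The class II median ran from 0.18 to 0.49. Under median scaling in place of quantile normalization, which moved the median of all probes to −0.18, the medians of the macrophage, lymphocyte, class II and complement lists stood 0.29, 0.19, 0.23 and 0.24 above that shift.

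**Figure D3:**
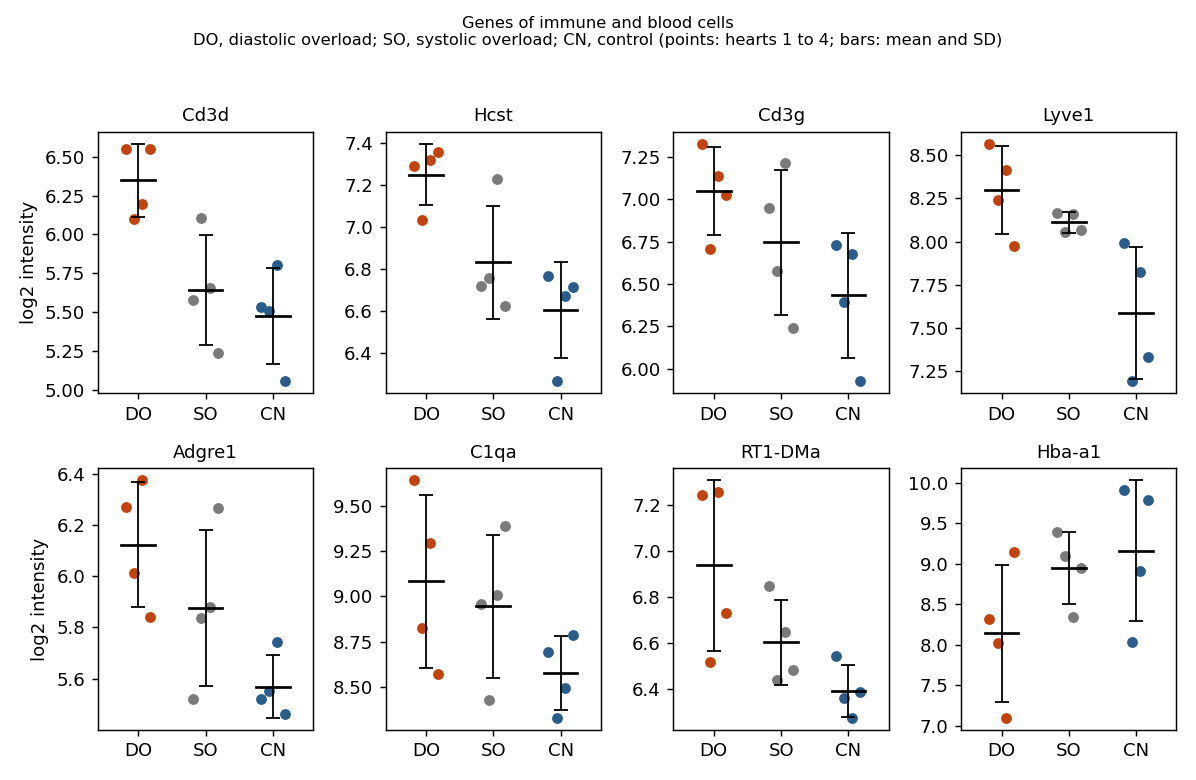
Normalized log2 intensity (vertical axes) of 8 genes of immune and blood cells in diastolic overload (DO), systolic overload (SO) and control (CN) hearts, with 1 point per heart and bars for the mean and SD. Cd3d, Hcst and Adgre1 are free of overlap between diastolic and control hearts; C1qa and RT1-DMa are high in diastolic hearts 1 and 3, and Hba-a1 is lowest in diastolic heart 3.

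Blood transcripts had lower means. All 4 tested erythroid genes had lower means under diastolic overload (median −0.45, and −0.28 without control 1). The listed alpha-globin gene Hba-a2, named after its values were seen, was near background and differed by −0.14. Hba-a1, an alpha-globin gene outside the list that the rule named for its wide difference, stood at 8.32, 8.02, 7.10 and 9.15 in diastolic hearts, against 9.91, 8.04, 8.92 and 9.79 in control hearts. The groups overlapped, with a difference of −1.02, and of −0.67 without diastolic overload 3. Hbb, a beta-globin gene, ranged from 5.40 to 7.42 in diastolic hearts and from 5.09 to 9.10 in control hearts, so the controls alone spanned the whole range. Its difference ran from −2.04 (without control 3) to −0.71 (without control 4). How much blood each heart held was not measured, and its part in the immune values was not tested.

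The growth factor Vegfa, which drives the growth of blood vessels, stood at 9.85, 9.33, 9.57 and 9.98 in diastolic hearts, against 10.32, 10.19, 10.36 and 10.02 in control hearts. The groups did not overlap, although diastolic overload 4 and control 4 nearly met. Diastolic hearts had a mean 1.45-fold lower (difference −0.54, 95% interval −0.85 to −0.23, limma adjusted p = 0.75). Systolic hearts stood at 9.84 to 10.20, and the difference between the overloads was −0.40 (limma adjusted p = 0.72).

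Vegfa belongs to the genes that hypoxia-inducible factors switch on when oxygen is short. Of 18 tested hypoxia-inducible genes, 14 had a lower mean and 4 a higher one (median −0.06, ranging from −0.08 to −0.03 with 1 array left out), and 2 were lower without overlap, Vegfa and Ankrd37, against 1.61% of all genes. Ankrd37, an ankyrin repeat protein known as a direct target of these factors, stood at 5.88, 5.67, 5.42 and 5.61 in diastolic hearts, against 6.30, 5.90, 6.01 and 5.89 in control hearts. The gap between diastolic overload 1 and control 4 was narrow, and the means differed by −0.38 (limma adjusted p = 0.88).

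Eno1, a glycolytic enzyme, stood at 8.17, 8.02, 7.66 and 7.85 in diastolic hearts, against 8.88, 8.68, 8.32 and 8.10 in control hearts. Diastolic overload 1 lay above control 4, so the groups overlapped by 1 heart on each side (difference −0.57). Its systolic mean, 7.98, was close to its diastolic mean of 7.92. Of 19 glycolytic enzymes and transporters 14 had a lower mean, with a median of only −0.03.

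Because these 3 genes had lower diastolic means together, the 250 bases before their start sites are shown (RefSeq, assembly GRCr8, plus strand). Capitals mark matches to the core of the hypoxia response element, ACGTG or GCGTG, searched on both strands.
Vegfa, chr9:22452604-22452853: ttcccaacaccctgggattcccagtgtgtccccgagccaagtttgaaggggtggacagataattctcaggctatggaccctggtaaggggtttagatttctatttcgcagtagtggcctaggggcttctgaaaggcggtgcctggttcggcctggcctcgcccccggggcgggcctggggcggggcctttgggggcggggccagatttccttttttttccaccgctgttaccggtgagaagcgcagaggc
Ankrd37, chr16:53001257-53001506: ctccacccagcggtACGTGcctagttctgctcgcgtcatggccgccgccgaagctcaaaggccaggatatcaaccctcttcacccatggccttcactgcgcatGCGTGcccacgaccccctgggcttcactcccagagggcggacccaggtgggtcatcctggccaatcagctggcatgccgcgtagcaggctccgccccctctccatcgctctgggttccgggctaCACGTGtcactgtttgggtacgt
Eno1, chr5:166002617-166002866: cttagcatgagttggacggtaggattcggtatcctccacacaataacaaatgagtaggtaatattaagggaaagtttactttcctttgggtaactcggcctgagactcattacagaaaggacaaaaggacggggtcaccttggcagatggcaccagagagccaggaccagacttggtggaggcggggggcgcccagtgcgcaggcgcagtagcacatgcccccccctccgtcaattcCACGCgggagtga
Ankrd37 held 4 matches, whose first bases lie 236, 147, 23 and 22 bases before the start. The last pair overlap on opposite strands within 1 palindrome, CACGTG. Eno1 held 1 match, 13 bases before the start, and the Vegfa window held 0. Bases outside these windows were not searched, so a match elsewhere would not be seen. The core is common, since 36.7% of 33469 promoters of this length held it, and a match describes the letters alone.

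Fatty acids supply most of the fuel of the adult heart, and genes that handle them had mostly lower means. Of 35 tested genes of fatty acid uptake and oxidation 25 had a lower mean and 10 a higher one (median −0.06), and 3 were lower without overlap, Cpt1a, Ppara and Acadl. Among all genes 1.61% were lower without overlap, and among all probes 5.49% had an unadjusted p under 0.05. Of the 35 genes 0 passed the test with limma, and 2 had an unadjusted p under 0.05, a share near that of all probes. The median ran from −0.14 (without diastolic overload 4) to −0.03 (without diastolic overload 2), and without diastolic overload 1 it was −0.04. It stood 0.10 below the shift of all probes under median scaling.

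Cpt1a, which carries long-chain fatty acids into mitochondria, stood at 7.51, 7.33, 7.77 and 7.44 in diastolic hearts, against 8.21, 8.06, 7.85 and 8.00 in control hearts. Diastolic overload 3 came closest to the controls, and the mean was 1.44-fold lower (difference −0.52, 95% interval −0.88 to −0.16, limma adjusted p = 0.78). Systolic hearts spanned 7.46 to 8.36. Cpt1b, a brighter gene of the same list, named after its values were seen, averaged 11.05 in diastolic hearts and 11.03 in control hearts (difference 0.02). Ppara, the nuclear receptor that controls many genes of fatty acid oxidation, stood at 5.08, 5.66, 5.46 and 5.47 in diastolic hearts, against 6.09, 5.84, 6.12 and 5.68 in control hearts. Diastolic overload 2 and control 4 nearly met, the gene was detected in 3 of 4 diastolic hearts, and the difference was −0.52.

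Acadl, a dehydrogenase of long-chain acyl-CoA, was among the brightest probes, whose signals can be compressed. It stood at 14.71 to 14.74 in diastolic hearts and 14.78 to 14.93 in control hearts (difference −0.14). Angptl4, a secreted inhibitor of lipoprotein lipase, had the lowest difference of the list (−0.71), yet its controls split into 7.76 and 7.23 against 5.69 and 5.45. Without controls 1 and 2 the difference was 0.25. Ucp2, a carrier of the inner mitochondrial membrane, had the highest difference (0.32), and it was 0.13 without diastolic overload 4, which reached 12.29. G0s2, an inhibitor of fat breakdown outside the lists, ranged from 8.05 to 10.71 in diastolic hearts and from 9.55 to 11.41 in control hearts (difference −0.99, and −0.57 without diastolic overload 3).

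Subunits of oxidative phosphorylation were centred on zero, with 19 of 39 higher and 20 lower. The only gene among them without overlap, against 1.61% of all genes lower without overlap, was Ndufs1, a subunit of complex I. It stood at 13.51 to 13.56 in diastolic hearts and 13.58 to 13.67 in control hearts (difference −0.09). Citric acid cycle enzymes had 8 of 18 members higher, with a median of −0.01.

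**Figure D4:**
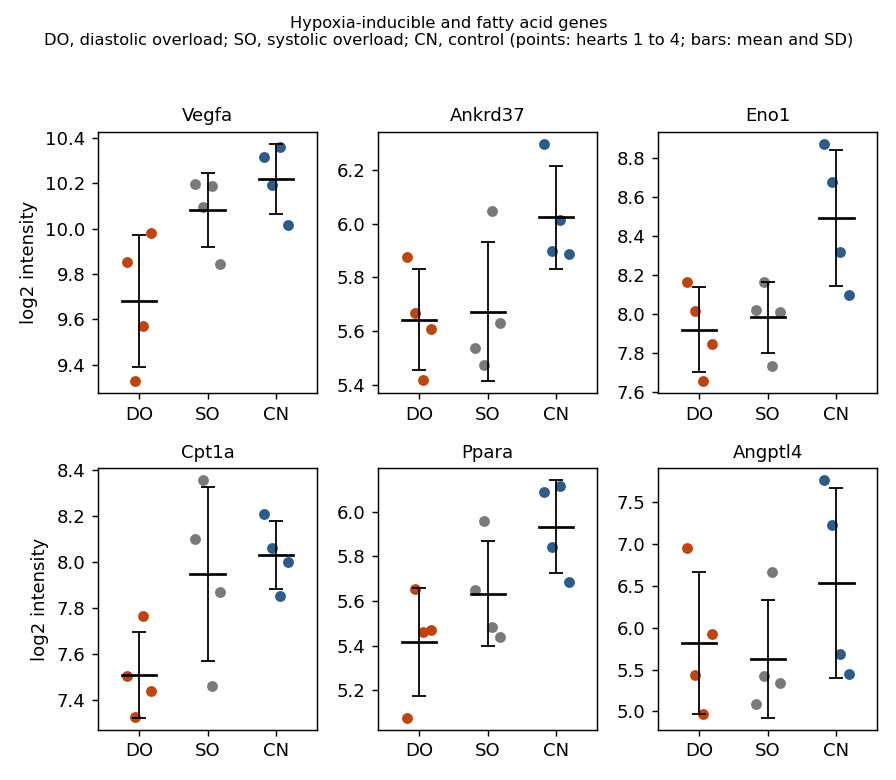
Normalized log2 intensity (vertical axes) of 3 hypoxia-inducible genes (upper row) and 3 fatty acid genes (lower row) in diastolic overload (DO), systolic overload (SO) and control (CN) hearts, with 1 point per heart and bars for the mean and SD. Vegfa, Ankrd37, Cpt1a and Ppara are free of overlap between diastolic and control hearts, while for Eno1 and Angptl4 the groups overlap.

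Genes of cardiac load and the fetal program had higher means in 16 of 20 tested members (median 0.17), against 47.9% of all genes. Of these members 2 were higher without overlap, Fhl1 and Ankrd1, against 0.871% of all genes. The median was 0.16 without diastolic overload 1 and 0.31 without control 1. Under median scaling it was −0.01, which is 0.17 above the shift of all probes. The cardiomyocyte and sarcomere lists stood 0.17 and 0.16 above that shift as well. By heart, the list's mean level was 11.90 to 12.46 in diastolic hearts and 11.79 to 12.19 in control hearts, so the list overlapped.

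Fhl1 encodes a LIM-domain protein of the sarcomere that takes part in stretch sensing. It stood at 9.67, 9.75, 9.71 and 9.80 in diastolic hearts, against 9.45, 9.20, 9.23 and 9.60 in control hearts and 9.23 to 9.64 in systolic hearts. The diastolic hearts lay above every heart of the other 2 groups, with differences of 0.36 from control (limma adjusted p = 0.75) and 0.28 from systolic overload (limma adjusted p = 0.74). Ankrd1 stood at 14.88 to 14.92 in diastolic hearts and 14.76 to 14.87 in control hearts, again among the brightest probes (difference 0.11).

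Acta1, skeletal alpha-actin, stood at 14.19, 14.25, 13.46 and 13.80 in diastolic hearts, against 13.67, 13.87, 13.08 and 13.56 in control hearts. Diastolic hearts 1 and 2 exceeded all controls and hearts 3 and 4 did not (difference 0.38, and 0.23 without control 3). The natriuretic peptide genes gave no gap, with a difference of 0.11 for Nppb, which was −0.00948 under median scaling, and of nearly zero for Nppa. Nppb too was among the bright probes whose signals can be compressed, at 14.38 to 14.65 in diastolic hearts and 14.25 to 14.66 in control hearts. Nppa spread over 10.46 to 14.46 in diastolic hearts and 11.02 to 14.22 in control hearts, and its difference ran from −0.68 to 0.65 when 1 array was left out. The growth factor Hbegf had the highest difference of the list (0.50), with control 1 above every diastolic heart. It was 0.90 without that control and 0.22 without control 4. The stress cytokine Gdf15 had the lowest difference (−0.52), which ran from −0.81 (without diastolic overload 4) to −0.27 (without diastolic overload 3).

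Among genes of the contractile apparatus, 11 of 20 sarcomere and Z-disc genes had a higher mean (median 0.03), and 0 of them were free of overlap. Myl2, the ventricular regulatory light chain, had the highest difference (0.40), with diastolic hearts at 10.09 to 10.66 and control hearts at 9.65 to 10.20. Calcium handling genes were split 8 to 8. The release channel gene Ryr2 had a difference of −0.15 by its brightest probe and of 0.13, 0.13 and −0.16 by its other 3 tested probes, so its probes disagreed in sign.

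Conduction and atrial genes differed widely within groups. Hcn4, a pacemaker channel, stood at 6.03, 5.33, 4.72 and 4.71 in diastolic hearts, against 7.48, 7.08, 4.75 and 6.50 in control hearts, with 2 diastolic and 3 control hearts detected. Control 3 lay with the lowest diastolic hearts, and the difference was −1.25. Gja5, the connexin of atria and of the conduction system, stood at 5.38, 5.23, 5.39 and 5.48 in diastolic hearts, against 6.85, 6.16, 5.45 and 5.94 in control hearts. Control 3 was again the lowest control (difference −0.73, limma adjusted p = 0.81, and −0.48 without control 1). Of 8 tested atrial genes 5 had a lower mean (median −0.08, and −0.25 without control 3), and which part of each heart was sampled cannot be told from the labels.

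Endothelial markers had lower means in 12 of 14 members (median −0.23), with 0 free of overlap. That median was −0.08 without control 1 and −0.34 without control 2. The list's mean level was 7.31 to 7.71 in diastolic hearts and 7.35 to 7.94 in control hearts. Cldn5, a tight junction protein of endothelium, stood at 9.26, 9.18, 10.50 and 11.19 in diastolic hearts, against 11.10, 9.66, 11.01 and 10.50 in control hearts. Its difference of −0.53 ran from −0.92 to −0.25 with 1 array left out. The transcription factor Erg, named after its values were seen, was detected in 0 of 4 diastolic and all 4 control hearts (at least 1.16-fold). Tek, the angiopoietin receptor, went against the list (0.26). With the vessel growth factors and their receptors, 10 of 17 members had a lower mean (median −0.10), but under median scaling that median lay 0.07 above the shift of all probes.

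Signalling genes showed small and mixed differences. Of 17 Wnt and Notch genes 13 had a lower mean and 4 a higher one (median −0.10), where 47.9% of all genes had a higher mean. Lower without overlap were 2 of them, against 1.61% of all genes: Tcf7l1, a Wnt transcription factor (−0.44), and Hey1, a repressor switched on by Notch (−0.24). Hey1 was near the detection limit and was detected in 3 of 4 diastolic hearts. Tcf7l1 stood at 6.25, 6.43, 6.61 and 6.83 in diastolic hearts, against 7.01, 6.91, 6.86 and 7.10 in control hearts, and still lower in systolic hearts, at 6.04 to 6.56. Of 13 adrenergic, angiotensin and endothelin genes 10 had a lower mean (median −0.14). The receptor gene Adra1a was lower without overlap (−0.22), against 1.61% of all genes. The mean level of that list was 7.11 to 7.21 in diastolic hearts and 7.25 to 7.37 in control hearts, free of overlap. With 4 hearts against 4, chance alone frees a list of overlap with a probability of 0.0286, so such a list can arise by chance among 41. Among the 41 lists with at least 5 tested genes the only other one free of overlap was the 14-3-3 genes, higher in diastolic hearts. In that list Ywhag differed by 0.78 and the other 5 tested genes by only −0.02 to 0.10. The 4 tested nerve and Schwann cell markers were free of overlap too. Their list means, 5.93 to 6.07 in diastolic hearts and 6.07 to 6.21 in control hearts, all but touched. The adrenergic list's median ran from −0.22 (without control 4) to −0.08 (without diastolic overload 3), and that of the Wnt and Notch list from −0.12 to −0.04 (without control 2). In the adrenergic list Rgs2, which damps G-protein signals, had a higher mean (0.42) and its relative Rgs4 a lower one (−0.34).

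Smad2, which carries signals of TGF-beta receptors to the nucleus, stood at 7.55 to 7.81 in diastolic hearts, 7.29 to 7.52 in systolic hearts and 7.39 to 7.52 in control hearts. It was thus higher in all diastolic hearts than in any other heart (differences 0.22 from control and 0.25 from systolic overload). Of 27 tested TGF-beta and BMP genes, only Smad2 had no overlap between diastolic and control hearts. Among all genes 0.871% were higher without overlap and 1.61% lower. Calr, a chaperone of the endoplasmic reticulum, stood at 12.76 to 12.95 in diastolic hearts, 13.06 to 13.13 in systolic hearts and 12.96 to 13.05 in control hearts, and was the lowest in the diastolic group. Trib3, a stress-induced pseudokinase of the same list, had a higher mean (0.50), and the list was centred at 0.0012 with 13 of 24 members higher. The lysosomal protease Ctsl was higher without overlap by 0.23, but the difference was −0.00161 under median scaling.

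The sign of the interferon-stimulated list changed with the hearts included. Of 22 members 18 had a lower mean under diastolic overload (median −0.21), and the list's mean level was 9.73, 8.70, 8.28 and 9.14 in diastolic hearts, against 9.57, 9.81, 8.52 and 8.77 in control hearts. Leaving out 1 heart, the median was 0.05 without diastolic overload 3, −0.52 without diastolic overload 1 and 0.01 without control 2. Without controls 1 and 2 together it was 0.34. The antiviral gene Mx1 stood at 10.81, 8.54, 7.91 and 9.33 in diastolic hearts, against 10.60, 11.03, 8.73 and 8.59 in control hearts.

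Class I histocompatibility genes are known to vary strongly between rats of an outbred stock. RT1-A1, which had the widest difference of all genes, stood at 11.19, 9.15, 8.35 and 8.45 in diastolic hearts, against 11.19, 11.26, 10.51 and 10.97 in control hearts, so that 3 diastolic hearts lay far below every control and the other matched them (difference −1.70, limma adjusted p = 0.88). RT1-A3 split the same hearts (difference −1.14). RT1-A2 went the other way and was free of overlap, at 10.35 to 10.81 in diastolic hearts and 9.33 to 10.20 in control hearts, but systolic hearts ranged from 6.66 to 10.51. Alleles carried by each rat and the match of the probes to them were not tested.

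**Figure D5:**
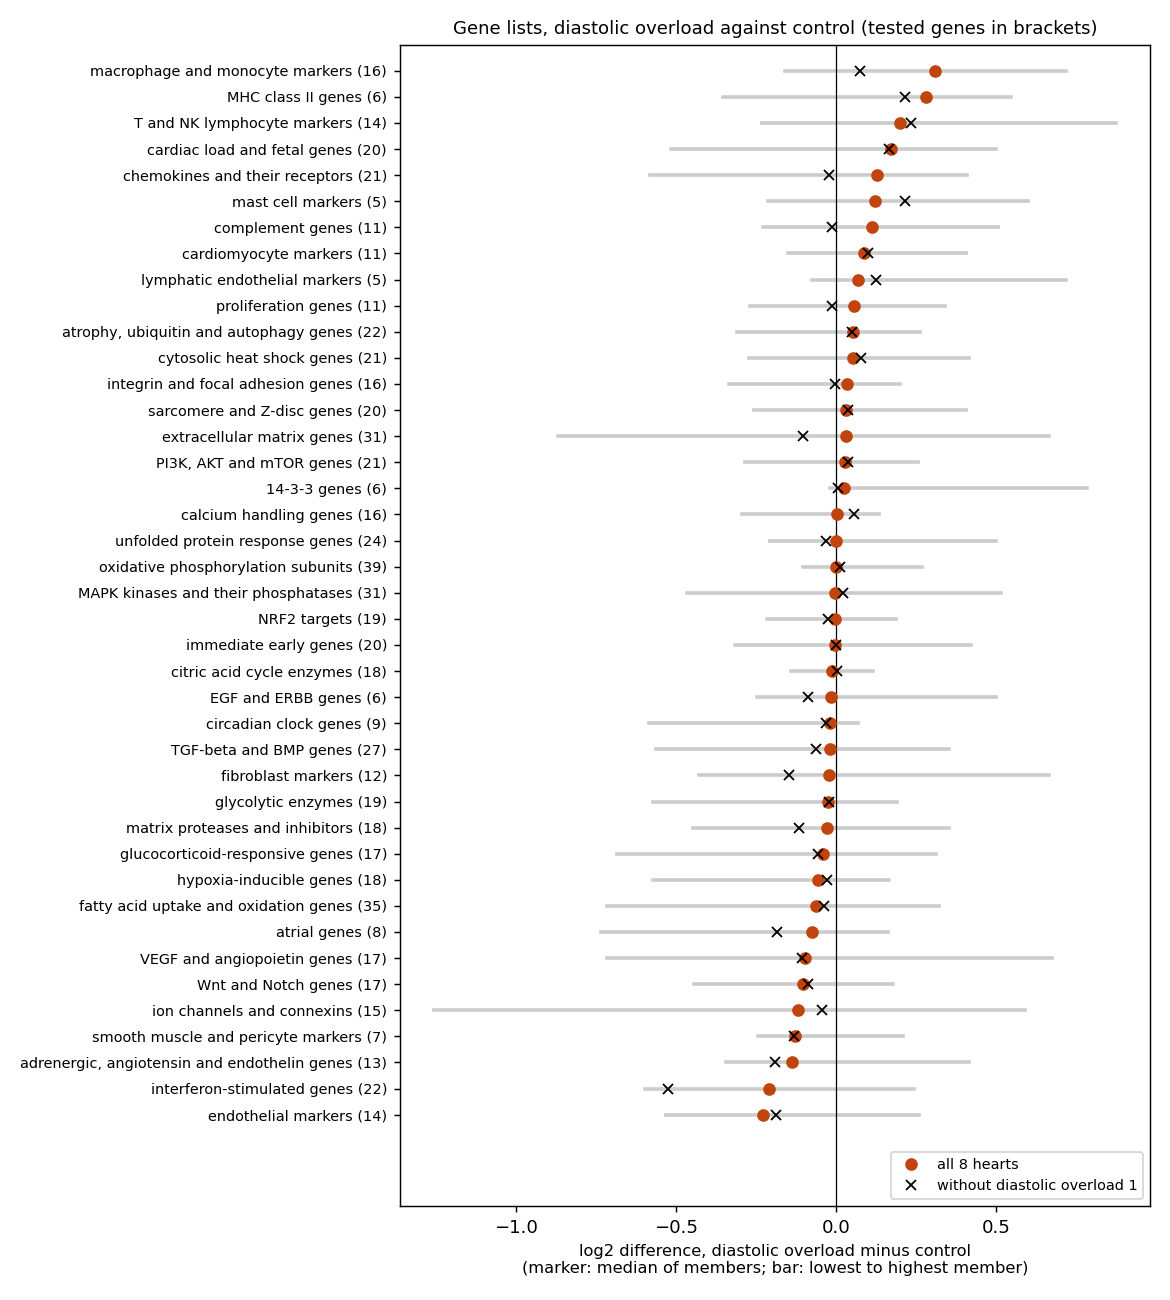
Log2 difference, diastolic overload minus control (horizontal axis), for the 41 gene lists with at least 5 tested genes; filled circles mark the median of the members over all 8 hearts, crosses the median without diastolic overload 1, and bars run from the lowest to the highest member. Macrophage markers (0.31, and 0.08 without that heart) stand at the top and endothelial markers (−0.23) at the bottom, and 19 of the 41 medians lie above 0.

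Across the 41 lists with at least 5 tested genes, 7 medians lay more than 0.1 above 0 and 6 more than 0.1 below, against a median of −0.0025 over all tested probes. Of the 22 lists with a median more than 0.05 from 0, 21 kept its sign relative to the shift of all probes under median scaling, and the exception was the list of vessel growth factors. Without allowance for that shift, 30 of 46 list medians, small lists included, moved by more than their standard deviation between hearts of a group. In the direct test of diastolic against systolic overload, 0 of 10234 probes (0%) passed with limma (smallest adjusted p = 0.50) and 647 had an unadjusted p under 0.05. Groups did not overlap for 320 probes (3.13%). Of the genes separated from control, 8 of the 64 higher and 14 of the 118 lower were also separated from systolic overload in the same direction, among them Fhl1, Smad2 and Slc43a2 above and Calr, Ndufs1 and Tmtc4 below. Both counts rest on the same diastolic hearts, so they are not independent of each other.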

How the data were processed

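Total RNA of rat hearts, purified with Trizol and columns and labelled with biotin per the labels' protocols, was hybridised to Illumina bead arrays. The authors deposited 1 intensity per probe and array, not normalized per the file headers, and beside it a detection p-value in steps of 1/825. A second deposited table held intensity values that, from their medians (96.83 to 96.91) and ranks, were quantile normalized. Software for either table was not given in the sources used here. The 12 columns were mapped by title.

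The neqc function of limma 3.58.1 (R 4.3.3) corrected the background, with an offset of 16, and normalized quantiles. A probe was tested if its detection p was under 0.05 on 4 or more of the 12 arrays. Lists and genes below refer to probes with 1 symbol in the platform annotation (13793 of 22523; 8730 had none), 13752 of which were found in the RefSeq table of GRCr8, with 0 symbols updated. The model (lmFit, eBayes) took all 12 arrays, with a mean for each group and Benjamini-Hochberg adjustment over all 10234 probes at 0.05. A fold is 2 to the power of the log2 difference. The median standard error was 0.13, and the number of arrays limits the precision. Where 0 arrays of a group detected a probe, the text gives a bound (at least N-fold). The pipeline was tested on simulated data.

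Named genes were the 20 with the smallest p, the 15 with the largest difference in each direction among genes without overlap, the 10 with the largest difference in each direction, members of 47 lists that were free of overlap or highest or lowest in their list, and 12 load and stress genes, of which Hspa1b was not tested; not all are printed. The genes, the lists and the comparison itself were chosen with earlier results of these data known. Whether replicate numbers pair the hearts cannot be told from these data. Deviations of diastolic and control hearts of the same number correlated at 0.21, 0.08, 0.33 and −0.04. Those of different numbers correlated at −0.40 to 0.26. Alternatives changed the background correction, scaling, detection filter, model and arrays included.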

Additional observations from a re-analysis of the deposited data

Results flagged for a closer look

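In a group of 4 hearts, 1 heart was marked when its gap to the nearest of the others exceeded Dixon's critical share of the group's whole range. Chance marks about 1 in 20 groups, and 13 of 254 groups were marked, against 12.7 expected. Among diastolic hearts, heart 4 stood apart for Lhfpl2 (4.956, others 5.197 to 5.238), Mpzl1 (6.927, others 6.745 to 6.775) and Ucp2 (12.29, others 11.45 to 11.57), and heart 2 for Rgs2 (11.15, others 11.61 to 11.69). Among control hearts, heart 1 stood apart for Rpusd1 (5.356, others 6.199 to 6.365), heart 3 for RT1-A2 (9.328, others 10.09 to 10.20) and Or10ag54b (5.956, others 5.789 to 5.812), and heart 4 for Bst2, an antiviral membrane protein (6.54, others 6.795 to 6.844).

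Mean levels of lists stood apart in diastolic heart 1 for 14-3-3 genes (10.82, others 10.51 to 10.55), in heart 2 for lymphatic endothelial markers (6.681, others 7.353 to 7.449), in heart 3 for circadian clock genes (7.856, others 7.712 to 7.733) and in heart 4 for Wnt and Notch genes (6.694, others 6.546 to 6.569). For the Wnt and Notch genes control 4 was marked too (6.715, others 6.688 to 6.69), in a group whose whole range was small.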

How the results depend on the processing

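The count of probes that passed was 0 for both contrasts under every alternative run, with a smallest adjusted p for diastolic overload against control between 0.094 (without diastolic overload 4) and 1.00 (without diastolic overload 3). With the replicate number as a block it was 0 probes as well (limma smallest adjusted p 0.69, 572 probes at an unadjusted p under 0.05). Whether the numbers pair the hearts is not known, so the block fit shows nothing about pairing. The count of 284 probes without overlap depended on the processing: it was 539 under median scaling, 724 without the detection filter, 189 with detection on all 12 arrays, 478 to 650 with 1 array left out, and 1339 without controls 1 and 2, an alternative chosen after seeing the data; fewer hearts overlap less by construction. Under median scaling 17.5% of probes had a higher diastolic mean, against 49.2% after quantile normalization, and the median of all probes was −0.18. The list members Cd3e, Cd247, Cd163, Ms4a7, Fcgr3a and Cpt1b were not carried through the alternatives. Of the other 86 genes given values, 79 kept their direction under every alternative run. The exceptions were Ctsl (−0.00161) and Nppb (−0.00948) under median scaling; Angptl4 (0.25), Gzma (0.50), Mx1 (0.48) and Nppa (0.97) without controls 1 and 2; and Nppa with array weights (0.14), without background correction (0.0061), with offset 50 (0.0028) and in the deposited normalized table (0.0061). With 1 array left out, Nppa ran from −0.68 to 0.65, Gzma from −0.54 to 0.24 and Ywhaq from −0.0631 to 0.0322. The causes were not tested. Probes near background, about 5 log2 units, are limited by signal.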

Other observations

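Other genes with wide differences in mean spread widely within groups. C3h15orf48 had the second widest higher difference (1.13), with diastolic hearts at 6.33 to 7.89 and control hearts at 4.81 to 7.76. Without control 1 it was 1.74. Art1, an ADP-ribosyltransferase of muscle, differed by 0.97 and Cavin2, a component of caveolae, by 0.90, of which 0.38 remained without control 1. Clec4e, a pattern receptor of myeloid cells, differed by 0.80, and by 0.39 without diastolic overload 1. Cds1, an enzyme of phospholipid synthesis, differed by −1.30, and by −0.84 without diastolic overload 3. Sectm1b differed by 0.90, and by 0.46 without diastolic overload 1. None passed the test with limma, and the groups overlapped for each.

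The collagen gene Col3a1 stood at 10.87, 9.62, 9.80 and 9.57 in diastolic hearts, against 9.96, 9.48, 9.20 and 8.56 in control hearts, a difference of 0.67, and of 0.36 without diastolic overload 1. Of 31 extracellular matrix genes 17 had a higher mean (median 0.03), and without diastolic overload 1 it was 7 of 31 (median −0.10). Smoc2 was the only member without overlap, against 1.61% of all genes lower without overlap.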
